A study of Mus musculus with 4 samples.

Results

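The choroid plexus is the secretory tissue of the brain ventricles, and 10 genes that mark its epithelium were followed here through RNA sequencing of the embryonic mouse brain: Ttr, Kl, Clic6, Folr1, Enpp2, Aqp1, Otx2, Prlr, Sostdc1 and Calml4. They were chosen by name, and each was listed in both deposited tables, so they made up 10 of the 19968 genes listed in both. The embryos were C57BL/6 at embryonic day 15, dissected for cerebral cortex, and carried either a conditional knockout of Prdm16 (Prdm16cKO) or the floxed Prdm16 alleles without a stated deletion (Prdm16fl/fl). The labels name neither the Cre driver nor the deleted exon, and the cells in which the gene was removed are therefore not known from them. The tables held 2 libraries named as knockout, called cKO 1 and cKO 2, and 1 control library, called floxed. The labels describe 2 samples per genotype, the series' text speaks of telencephalon, and 1 sample of each genotype has the word Blood in its title without explanation. Column names do not show which sample gave which library. No source says that libraries came from separate embryos, and a p-value here reflects only how far these libraries differ, which could be technical.

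Choroid plexus epithelium develops from the dorsal midline of each ventricle, next to the cortical hem, under BMP signals and the homeodomain factor Otx2. Its cells make most of the cerebrospinal fluid, secrete carrier proteins such as transthyretin into it, and form a tight barrier over leaky vessels and a fibroblast stroma. The plexus of the lateral ventricle is attached to the medial edge of the cortical wall.

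Sequence upstream of a start site was taken from the RefSeq promoter table (GRCm38.p6) for 3 members. For each, the table held the gene and the 250 bases before the start lay outside the gene's own exons. The water channel gene Aqp1 had the lowest ratio in cKO 2. The klotho gene Kl was among the lowest there, but on only 3 counts. Of the 9 members below floxed there, the transcription factor gene Otx2 had the ratio nearest to 1. Printed here are Aqp1, Kl and Otx2. Their windows are chr6:55336049-55336298 (plus strand), chr5:150952357-150952606 (plus strand) and chr14:48667645-48667894 (minus strand), printed 5′ to 3′ with matches to either searched motif in capitals.
Aqp1: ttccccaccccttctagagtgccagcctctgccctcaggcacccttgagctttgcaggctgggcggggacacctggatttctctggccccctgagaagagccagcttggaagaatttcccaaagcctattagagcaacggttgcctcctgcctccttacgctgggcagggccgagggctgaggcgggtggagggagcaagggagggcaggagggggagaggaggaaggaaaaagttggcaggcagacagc
Kl: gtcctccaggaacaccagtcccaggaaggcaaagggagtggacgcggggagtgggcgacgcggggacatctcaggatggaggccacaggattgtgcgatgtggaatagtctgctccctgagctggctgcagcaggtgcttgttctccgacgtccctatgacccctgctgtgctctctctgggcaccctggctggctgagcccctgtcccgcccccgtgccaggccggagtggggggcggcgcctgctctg
Otx2: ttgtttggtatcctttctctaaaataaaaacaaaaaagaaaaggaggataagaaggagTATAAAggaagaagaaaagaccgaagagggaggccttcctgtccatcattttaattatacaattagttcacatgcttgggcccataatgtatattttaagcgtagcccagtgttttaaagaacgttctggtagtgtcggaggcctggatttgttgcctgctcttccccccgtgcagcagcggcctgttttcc
The table held 10 windows for 5 of the members: Aqp1, Calml4, Kl, Otx2 and Prlr. They were searched on both strands for TAATCC, the core letters that OTX factors bind, and for TATAAA, the letters of a TATA box. A match shows the letters only, and whether it works as a site was not tested. TATAAA was found in the Otx2 window printed above, beginning 192 bases before the start, and nowhere else among the 10, where 12.4% of all 32851 windows of the same length held it. TAATCC was found in 1 of the 10, another Otx2 window (chr14:48665110-48665359) that lies wholly within Otx2 exons of GENCODE M21, where 6.25% of all windows held it. The Aqp1, Kl, Calml4 and Prlr windows had no match to either.

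The libraries held between 17839662 and 19514882 counts. In floxed Prdm16 had 538 counts, against 676 and 447 in cKO 1 and cKO 2, which per 1000000 counts of the library (CPM) is 30.2, 34.6 and 24.1. The library labelled cKO 1 therefore goes against its label in the total over all exons (ratio to floxed 1.15, exact 95% interval 1.02 to 1.29), while cKO 2 goes with its label (ratio 0.798, interval 0.702 to 0.906). A deletion of some exons can leave such a total unaltered. Directions below refer to libraries as labelled. Cortical neuron genes, which check the dissected tissue, summed to 6936, 7012 and 6982 CPM in cKO 1, cKO 2 and floxed over 8 genes, of which Tubb3, Neurod6 and Neurod2 had the highest means over the libraries.

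Choroid plexus transcripts were present in all 3 libraries. Their summed level, mostly Ttr, was nearly the same in cKO 1 and floxed and much lower in cKO 2. The 10 genes together had 1125 CPM in cKO 1, 1132 in floxed and 340 in cKO 2, of which Ttr alone was 86.4%, 88.0% and 86.8%. Without Ttr the sums were 153, 136 and 44.8 CPM in the same order of libraries. In cKO 2, 9 of the 10 were below floxed beyond counting error, where 24.6% of all tested genes were, and 8 of them by more than 2-fold, where 7.82% were. Otx2 was lower by less than that, and Prlr was past 2-fold upward on few counts (background 1.83%). In cKO 1, no member was lower by more than 2-fold (background 2.15%), and 7 of 10 had a ratio to floxed within counting error. Both libraries labelled cKO were below floxed in 3 members (background 31.9%), namely Ttr, Aqp1 and Calml4, with Ttr beyond counting error in both. Both were above it in Prlr alone (background 27.6%), and in the other 6 cKO 1 was above floxed and cKO 2 below (background 24.8%). No member passed the test of cKO against floxed.

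**Figure D1:**
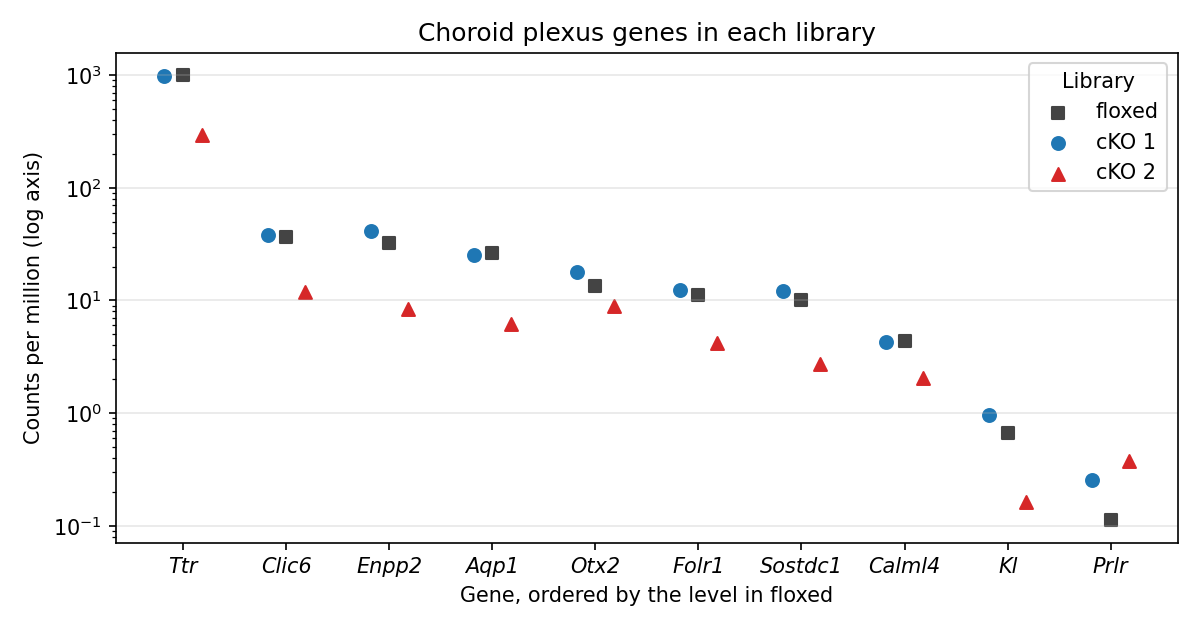
Level of each choroid plexus gene in CPM (log axis) in the floxed library (squares), cKO 1 (circles) and cKO 2 (triangles), 1 point per library. In 9 of 10 genes the cKO 2 point is the lowest, and Ttr lies far above the rest in every library.

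Ttr encodes transthyretin, the carrier of thyroxine and of retinol-binding protein in cerebrospinal fluid (ENSMUSG00000061808, chromosome 18, 20665250 to 20674324, plus strand, GRCm38 as in the tables). Floxed held 17770 Ttr counts, cKO 1 held 18980 and cKO 2 held 5485, which is 996, 973 and 295 CPM. The level in cKO 2 stood alone, 3.37-fold below floxed (ratio 0.296, exact 95% interval 0.287 to 0.306), while cKO 1 was within a few percent of floxed (ratio 0.976, interval 0.957 to 0.997). Intervals of ratios are exact (Clopper-Pearson) and cover counting error only. Among all listed genes Ttr ranked 63rd by count in floxed, 70th in cKO 1 and 546th in cKO 2. Over the libraries labelled cKO the mean was 634 ± 479 CPM (SD, n = 2). The log2 fold of cKO over floxed from the edgeR fit was -0.65 (SE 0.53, edgeR adjusted p = 0.9999).

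Aqp1, Clic6 and Folr1 act at the epithelial membrane: Aqp1 is the water channel of the apical surface, Clic6 belongs to the chloride intracellular channel family, and Folr1 is the folate receptor that moves folate into cerebrospinal fluid. Aqp1 (chromosome 6, 55336432 to 55348555, plus strand) had 25.2 CPM in cKO 1, 6.19 in cKO 2 and 26.6 in floxed. Its ratio of cKO 2 to floxed, 0.232 (interval 0.188 to 0.286), was the lowest of the members. Clic6 (chromosome 16, 92485736 to 92541243, plus strand) had 37.8, 11.9 and 36.8 CPM in the same order of libraries, a ratio of 0.323 in cKO 2 (interval 0.276 to 0.377). For both genes, cKO 1 lay within counting error of floxed. Folr1 (chromosome 7, 101858331 to 101870788, minus strand) had 12.3, 4.198 and 11.1 CPM, a ratio of 0.378 in cKO 2 (interval 0.287 to 0.494). Here too floxed and cKO 1 were close, and cKO 2 lay apart from both. The Folr1 locus is crossed by Anapc15 on the other strand, with no shared exon bases in GENCODE M21.

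Enpp2 and Kl encode products that act outside the cell. Enpp2 is autotaxin, the secreted enzyme that makes lysophosphatidic acid (chromosome 15, 54838898 to 54920146, minus strand), and it had 41.8 CPM in cKO 1, 8.34 in cKO 2 and 32.6 in floxed. It was the member with the widest range between the libraries labelled cKO among those of at least 10 counts in each, 5.01-fold (ratio of cKO 2 to cKO 1 0.200, interval 0.167 to 0.237). Unlike most members, its level in cKO 1 was above floxed beyond counting error (ratio 1.28, interval 1.15 to 1.43). In GENCODE M21, 5.97% of its exon bases are shared with a noncoding gene on the other strand, whose reads this unstranded kit cannot separate. Kl, which encodes klotho, the co-receptor for a phosphate-regulating FGF (chromosome 5, 150952607 to 150993817, plus strand), was read 12 times in floxed, 19 times in cKO 1 and 3 times in cKO 2. The Kl ratio of 0.240 in cKO 2 has an interval of 0.0435 to 0.890, so its direction was resolved but not its size.

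Sostdc1 and Prlr are linked to signalling, and Calml4 is described with them. Sostdc1 encodes a secreted antagonist of BMP and Wnt ligands (chromosome 12, 36314139 to 36318452, plus strand), and it had 12.2 CPM in cKO 1, 2.75 in cKO 2 and 10.1 in floxed. Its ratio was 0.272 in cKO 2 (interval 0.195 to 0.373) and 1.21 in cKO 1 (interval 0.992 to 1.48). Calml4, a calmodulin-like protein gene (chromosome 9, 62858080 to 62875921, plus strand), had 4.30, 2.05 and 4.37 CPM in cKO 1, cKO 2 and floxed, a ratio of 0.468 in cKO 2 (interval 0.309 to 0.698). Both genes repeated the order in which cKO 2 was lowest. Prlr, the prolactin receptor gene (chromosome 15, 10177238 to 10349180, plus strand), had only 5, 7 and 2 counts. Its ratios of 2.29 and 3.36 have intervals of 0.374 to 24.0 and 0.640 to 33.2, so no difference was detectable at this depth.

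Otx2, the homeodomain transcription factor that choroid plexus epithelium requires (chromosome 14, 48657679 to 48667644, minus strand), had the smallest fold difference in cKO 2 among the 9 members below floxed there. Floxed held 241 Otx2 counts, cKO 1 held 348 and cKO 2 held 165, which is 13.5, 17.8 and 8.88 CPM. The floxed level lay between the libraries labelled cKO, above cKO 2 (ratio 0.657, interval 0.536 to 0.805) and below cKO 1 (ratio 1.32, interval 1.12 to 1.56). The interval in cKO 2 did not overlap those of Ttr, Aqp1, Clic6, Enpp2, Folr1 or Sostdc1. It overlapped those of Calml4, Kl and Prlr, which rest on fewer counts. The antisense gene Otx2os1 shares 3.65% of Otx2 exon bases and had 20, 9 and 13 counts in cKO 1, cKO 2 and floxed. Gm49154, on the same strand, shares 3.98%, and its counts were not analysed here.

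**Figure D2:**
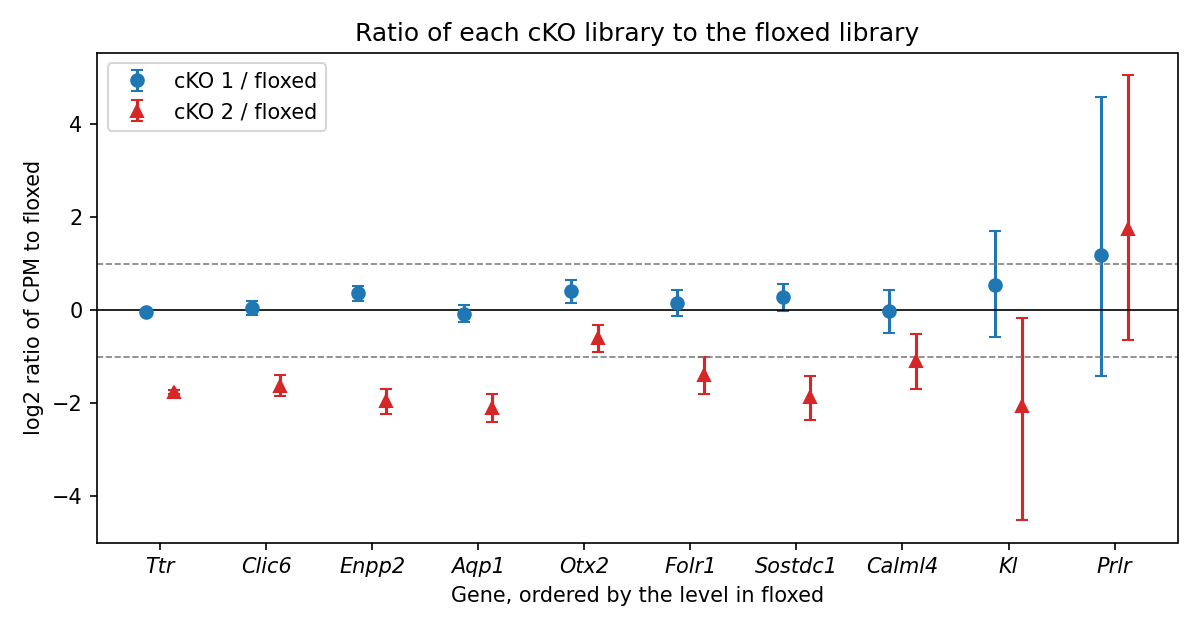
log2 ratio of CPM of cKO 1 (circles) and cKO 2 (triangles) to the floxed library, with exact 95% intervals for counting error; dashed lines mark 2-fold. In cKO 2, 8 genes lie below the lower dashed line, Otx2 lies between it and 0, and the Prlr intervals cross 0 in both libraries.

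Levels were then set against Ttr within each library, which asks whether the members kept their proportions where the total was low. Clic6 had 38.9 reads per 1000 Ttr reads in cKO 1, 40.3 in cKO 2 and 36.9 in floxed, with overlapping exact intervals (36.1 to 41.9, 35.1 to 46.1 and 34.1 to 39.9). Folr1 had 12.6, 14.2 and 11.1, and Sostdc1 12.5, 9.30 and 10.1, also with intervals that overlap between all libraries. These intervals alone did not separate the libraries for Clic6, Folr1 or Sostdc1, although Ttr itself was 3.37-fold lower in cKO 2 than in floxed. Overlap of intervals does not show that the proportions were equal. A direct comparison of 2 libraries, which is more sensitive, was not made for these proportions. Otx2 had 18.3 reads per 1000 Ttr reads in cKO 1, 30.1 in cKO 2 and 13.6 in floxed, and its 3 intervals (16.4 to 20.4, 25.6 to 35.1 and 11.9 to 15.4) were separate. The Enpp2 value was 42.9 in cKO 1 against 28.3 in cKO 2 and 32.7 in floxed, and here cKO 1 was the library apart. Aqp1 (25.9, 20.97 and 26.7) and Calml4 (4.43, 6.93 and 4.39) had intervals that overlapped between cKO 2 and floxed. Their ratios of cKO 2 to floxed, however, were separate from that of Ttr (interval 0.287 to 0.306). The Aqp1 interval (0.188 to 0.286) lay below it and the Calml4 interval (0.309 to 0.698) above it. For both genes the proportion to Ttr in cKO 2 thus differed from floxed beyond counting error.

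**Figure D3:**
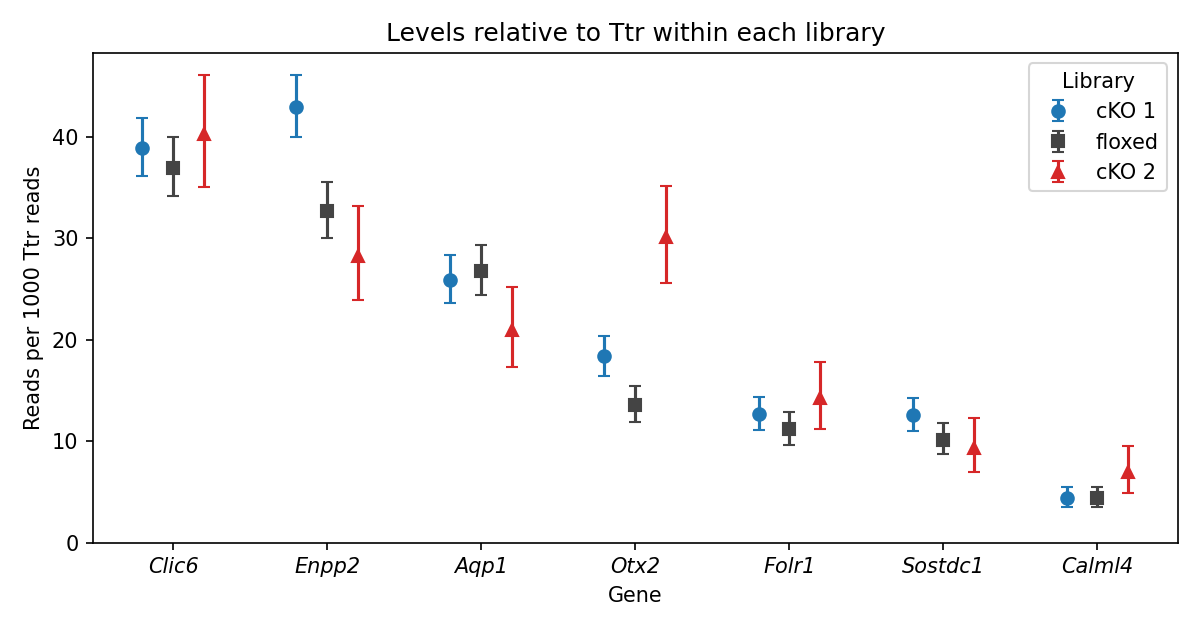
Reads of each member per 1000 Ttr reads in cKO 1 (circles), floxed (squares) and cKO 2 (triangles), with exact 95% intervals; Kl and Prlr, with few counts, are left out. Clic6, Folr1 and Sostdc1 have overlapping intervals in all 3 libraries, and the Otx2 point of cKO 2 (30.1) lies above the others (13.6 and 18.3).

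Per kilobase of exon, the order of the levels in floxed was Ttr (840 CPM per kb), Aqp1 (10.1), Clic6 (9.39), Sostdc1 (5.67), Enpp2 (5.64), Folr1 (4.83), Otx2 (3.20), Calml4 (1.20), Kl (0.0721) and Prlr (0.00731). Within that library, Aqp1 and Clic6 did not differ beyond counting error, nor did Sostdc1, Enpp2 and Folr1. In cKO 2 the levels from Aqp1 to Enpp2 drew together, with Otx2 (2.10 CPM per kb) between Aqp1 (2.36) and Folr1 (1.83), and each neighbour from Clic6 (3.04) down to Enpp2 (1.44) overlapped the next. The Otx2 gene thus moved from the seventh place in floxed and cKO 1 to the fourth in cKO 2.

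The comparison the design implies, cKO against floxed, was made with edgeR's quasi-likelihood test over all genes that passed its expression filter. Of 16658 genes tested, 1 was called at an adjusted p under 0.05 (0.006%). Of the 10 members 9 passed the filter, Prlr being too low, and 0 were called (adjusted p = 0.9999 for each, edgeR). At an unadjusted p under 0.05 there were also 0 members, and DESeq2 and limma-voom called 0. Fitted log2 folds ranged from -0.76 for Aqp1 (SE 0.62) to -0.02 for Otx2 (SE 0.41). With a single floxed library, the spread behind this test comes from the libraries labelled cKO, whose values lay far apart: cKO 2 was below cKO 1 beyond counting error in 9 of 10 members (background 27.4%), and floxed lay between them, below cKO 1, in 6. Without cKO 2 the log2 fold, then with no test, ran from -0.08 to 0.53 over the 9 genes and was above 0 in 6, and without cKO 1 it ran from -2.10 to -0.61. An exact permutation of 2 libraries against 1 could not go below a one-sided p = 0.333 and was not run.

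Each cKO library was also set against floxed alone. The median log2 ratio of the members was -1.69 in cKO 2, beside -0.04 over all tested genes. In cKO 1 the median was 0.21, beside 0.01, with Enpp2 and Otx2 higher beyond counting error (background 17.9%) and Ttr lower (16.1%). Prlr was the only member past 2-fold in cKO 1, upward and on 5 counts (background 2.53%). The pattern of cKO 1 within counting error and cKO 2 lower by more than 2-fold was seen in 6 of 10 members and in 5.38% of tested genes. In the authors' deposited table for cKO 2, 8 of the 10 were marked significant, all lower (background 5.62%), with authors' log2 folds from -2.10 for Aqp1 to -1.10 for Calml4. In the authors' deposited table for cKO 1, 0 were marked (backgrounds 1.45% higher and 0.891% lower). All 8 members marked in cKO 2 differed by more than 2-fold. Enpp2 and Otx2, above floxed in cKO 1 beyond counting error but by less than 2-fold, were not marked. A missing mark therefore does not show a missing difference. These marks compare 1 library with 1 library and share the floxed library. In bulk RNA, fewer cells of a type and less RNA per cell cannot be told apart.

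As a background for the lists that follow, 52.4% of all tested genes were above floxed and 47.6% below it in cKO 1, where 7 and 3 of the 10 members were. In cKO 2 these shares were 43.3% and 56.7%, beside 1 and 9 members, and 16.1% of tested genes were higher there beyond counting error, as no member was. Other genes of the same epithelium were read from a list of 25, all listed in both tables. In cKO 2, 23 of 25 were below floxed, 20 beyond counting error and 19 by more than 2-fold, with a median log2 ratio of -1.37. In cKO 1, 13 were above floxed and 12 below, 5 and 4 of them beyond counting error, with a median of 0.00. No gene of the list was called by edgeR among 24 tested. Wfikkn2, a secreted protease-inhibitor-like protein gene, had 28.5 CPM in cKO 1, 7.97 in cKO 2 and 31.0 in floxed, and the potassium channel subunit gene Kcne2 had 22.6, 6.30 and 23.3. The carbonic anhydrase gene Car12 (17.8, 6.51 and 16.9 CPM) and the serotonin receptor gene Htr2c (10.1, 3.61 and 7.29 CPM) had the same lowest library. The 3 most abundant genes of the list were less uniform. Slc29a4, a monoamine transporter gene that neurons also express, had 168, 192 and 187 CPM, and Col9a3 47.1, 36.4 and 57.4. Sulf1, an extracellular sulfatase gene, had 44.0, 16.1 and 33.4 CPM. Larger ratios were seen for the tight junction gene Cldn2 (2 counts in cKO 2, against 46 in floxed and 39 in cKO 1) and for the sulfate transporter gene Slc13a4 (9, against 118 and 170 counts).

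Genes of the roof plate and cortical hem, the neighbouring source of Wnt and BMP signals, split in cKO 2. Of 14 listed in both tables, 9 were below floxed, 7 beyond counting error, and 5 above, 3 beyond counting error (median log2 ratio -0.36, and 0.29 in cKO 1). The share below floxed is near that of all tested genes, and 6 of the 14 were lower by more than 2-fold. The BMP ligand gene Bmp7 had 36.8 CPM in cKO 1, 9.31 in cKO 2 and 28.4 in floxed, Bmp6 had 15.01, 1.61 and 11.7, and the homeobox gene Msx1 had 12.8, 2.91 and 12.5. Genes of the hem were mixed. The R-spondin gene Rspo3 had 31.8, 31.6 and 24.3 CPM and the p53 relative Trp73 30.1, 36.1 and 29.9, both above floxed in cKO 2 beyond counting error. Wnt5a (ratio 0.765 in cKO 2, interval 0.650 to 0.900) and Wnt2b (ratio 0.445, interval 0.265 to 0.727) were below it. Wnt8b (6.20, 5.87 and 4.65 CPM) and Wnt3a (3.28, 3.01 and 3.31 CPM) were within counting error of floxed in cKO 2. Lmx1a, a roof plate factor, had 6.87, 4.25 and 5.33 CPM.

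Marker lists of tissue next to the plexus had their lowest summed levels in cKO 2, as the members did, but the sizes of the differences varied. In cKO 1 the sums of these lists were above floxed. Of 19 meningeal and fibroblast genes, all were above floxed in cKO 1 (17 beyond counting error) and all below it in cKO 2 (18 beyond counting error), with medians of 0.68 and -3.19 on the log2 scale. Their summed level was 919 CPM in cKO 1, 41.6 in cKO 2 and 579 in floxed, led by Col3a1 (215, 6.84 and 136 CPM), Col1a2 (178, 4.58 and 111) and Col1a1 (143, 2.58 and 90.6). None of these genes was at 0 in any library, although Slc6a13 had 1 count in cKO 2 against 450 in floxed. In cKO 1 the list was above floxed where the members' sum, mostly Ttr, was level with it (1125 against 1132 CPM). Without Ttr the members' sum was also above floxed there (153 against 136 CPM). In cKO 2 the list was lower by more than the members were. Of 15 endothelial genes, 13 were above floxed in cKO 1 and 15 below it in cKO 2 (medians 0.15 and -0.86, sums 416, 205 and 351 CPM), led by Cldn5 (79.1, 51.5 and 75.3 CPM), Cdh5 (69.8, 21.8 and 44.2) and Kdr (54.7, 23.3 and 43.6). Plvap, a marker of the fenestrated vessels found in the plexus, had 6.61, 4.84 and 6.61 CPM. Of 12 pericyte and smooth muscle genes, 10 were above floxed in cKO 1 and 11 below it in cKO 2 (medians 0.24 and -0.88, sums 273, 146 and 231 CPM), with Tagln at 0 counts in cKO 2. Rgs5 led it (88.2, 46.6 and 72.1 CPM), then Notch3 (62.0, 48.9 and 55.8) and Pdgfrb (41.5, 17.2 and 36.3). Of 14 microglia and macrophage genes, 12 were above it in cKO 1 and 14 below it in cKO 2 (medians 0.32 and -0.88, sums 201, 69.8 and 152 CPM), with Cd163 at 0 counts in cKO 2. Its leading genes were Csf1r (41.1, 13.4 and 33.1 CPM), C1qc (23.2, 12.4 and 20.3) and C1qb (22.6, 10.5 and 14.5). The part of these other cells in the levels of the members was not tested.

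**Figure D4:**
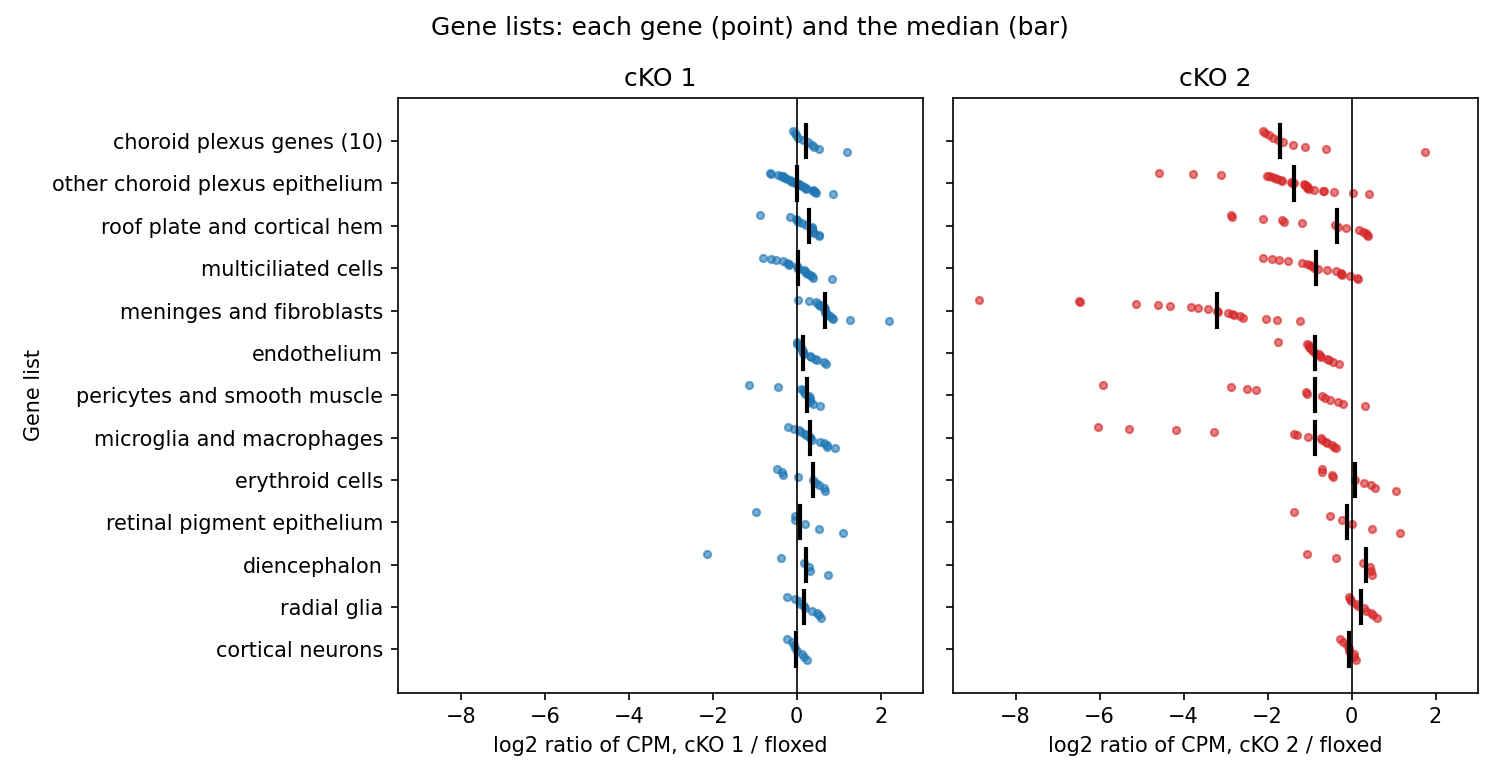
log2 ratio of CPM to floxed for each gene (points) of the 13 gene lists, in cKO 1 (left) and cKO 2 (right), with the list's median as a black bar; a gene with 0 counts in a library is drawn at the limit that 3 counts give. In cKO 2 the medians are -1.69 for the choroid plexus genes, -1.37 for other epithelial genes of the plexus and -3.19 for meninges. There the median is 0.23 for radial glia and -0.05 for cortical neurons.

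Other sources of Otx2 and Ttr were checked with markers of the retinal pigment epithelium and the diencephalon, which also express one or both. Of the 8 pigment epithelium genes, 6 were listed in both tables and summed to 125 CPM in cKO 1, 129 in cKO 2 and 124 in floxed, nearly all of it Rlbp1 (105, 109 and 107 CPM), which glia also express. Dct had 13.9, 17.1 and 12.2 CPM and Mitf 3.54, 1.72 and 2.47, and Tyrp1 was at 0 counts in floxed and 7 in each of the others. Best1, a channel gene of this epithelium, was lower in cKO 2 by more than 2-fold (34, 13 and 32 counts, ratio 0.390, interval 0.188 to 0.764). Rpe65 and Tyr were listed in neither of the tables used, so their levels were not analysed here. Of the 8 diencephalic genes, 6 were listed in both tables and summed to 30.4, 33.6 and 25.6 CPM, led by Lhx9 (22.0, 24.1 and 17.8) and Barhl2 (5.84, 7.10 and 5.16), with Gbx2 at 1.08, 1.08 and 1.40. Neither sum was lowest in cKO 2, but Best1 and Mitf were lowest there, as 9 of the members were, Mitf within counting error of floxed.

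Radial glia and blood were the remaining checks. Of 10 radial glia genes, 8 were above floxed in cKO 1 and 7 in cKO 2 (medians 0.18 and 0.23), led by Vim (858, 874 and 572 CPM), Fabp7 (661, 679 and 477) and Nes (422, 406 and 329). The 8 cortical neuron genes had medians of -0.02 and -0.05. Of 9 erythroid genes, 6 were above floxed in cKO 1 and 5 in cKO 2 (medians 0.39 and 0.08), with sums of 1607, 1296 and 1760 CPM. Hbb-bs had 760, 553 and 749 CPM, Hba-a1 427, 363 and 587, and Hba-a2 219, 198 and 273. These globin genes have near-identical copies, so the split of reads between them is uncertain.

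Genes whose pattern over the 3 libraries was most like the members' were found by the distance between their log2 ratios in cKO 1 and cKO 2 and the members' medians (0.21 and -1.69), among 11546 other genes with a mean of at least 5 CPM. The nearest were the collagen gene Col8a2 (ratios 0.28 and -1.72 on the log2 scale, distance 0.08), the tight junction gene Cldn1 (0.23 and -1.78, distance 0.09) and the angiotensin-converting enzyme gene Ace (0.12 and -1.66, distance 0.10). Loxl2, a lysyl oxidase-like gene (0.17 and -1.78), and Lrrc32, a TGF-beta-binding surface protein gene (0.10 and -1.67), followed. Cldn1 and Ace are also on the list of other epithelial genes of the plexus. Likeness over 3 libraries describes these libraries only.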

How the data were processed

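RNA sequencing counts of 2 libraries labelled cKO and 1 labelled floxed were used. Per the file headers, the authors deposited counts that were not normalized, together with CPM values, fold ratios, log2 folds and p-values of 1 library against 1. From the values, the deposited CPM are counts scaled to a library total, with 0 replaced by 0.5. Per the submitters' processing notes, the build was mm9 and the tools were HTSeq 0.6.0, TopHat2 2.0.12 and Bowtie2 2.2.3. Positions in the tables are those of GRCm38: 7 of 10 members had identical coordinates in GENCODE M21. The TruSeq RNA kit does not mark strand, with counting options not given in the sources used here. The tables list a gene when both libraries have a read, or when one has 0 and the other at least 5.

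Counts were scaled to library totals (19514882 for cKO 1, 18579178 for cKO 2 and 17839662 for floxed), at which 3 counts, the limit that a count of 0 allows, are 0.154, 0.161 and 0.168 CPM. The floxed counts were identical in both tables and used once. Genes listed in both tables with edgeR's default filter (minimum count 10) entered the test in edgeR 4.0.16 under R 4.3.3 (quasi-likelihood, library totals, Benjamini-Hochberg over 16658 genes), with 1 residual degree of freedom, so the floxed library was assumed to vary like the others. The SE is the log2 fold divided by the square root of F. Ratios of 2 libraries have exact 95% binomial intervals (scipy 1.17.1), and levels per kilobase exact Poisson intervals. Without molecular identifiers, these cover counting error only. Exon lengths are unions over GENCODE M21 transcripts. The fit and the intervals were tested on simulated data. Alternatives were TMM and DESeq2 size factors, no filter, DESeq2 1.42.0, limma-voom (limma 3.58.1), totals over shared genes, a pseudocount of 0.5, and leaving out each cKO library. The members, the 12 other lists and the rules were chosen with earlier results of these data known. Named genes are all members, the 3 genes of highest mean CPM over the libraries in each other list, further genes of the plexus and roof plate lists, and the 5 nearest patterns. Plvap, Cldn2, Slc13a4, Slc6a13, Tagln, Cd163, Tyrp1, Best1, Msx1, Bmp6, Wnt8b, Wnt5a, Wnt2b, Wnt3a and Lmx1a were chosen after their values were seen.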

Additional observations from a re-analysis of the deposited data

How the results depend on the processing

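The number of genes called by edgeR was 1 with library totals, 0 with TMM factors (217 genes at an unadjusted p under 0.05), 0 with DESeq2 size factors (215) and 0 with no filter (412). It was 1 with limma-voom and 5 with DESeq2, and no member was among them under any of these settings. Among 45 fitted folds of members under these alternatives, 0 changed sign (Prlr, too low for the filter, is not among them). The Ttr log2 ratio of cKO 2 to floxed was -1.75 with library totals and -1.71 with TMM factors and with DESeq2 size factors, outside its narrow counting interval. All 80 alternative values of the members' library ratios kept their sign, and 78 stayed within the counting interval; another scaling moved them by at most 0.04 on the log2 scale. The members' median stayed between -1.75 and -1.65 in cKO 2 and between 0.15 and 0.21 in cKO 1 over the alternatives. Leaving out a cKO library leaves 1 against 1 with no test: the Ttr log2 fold was then -1.75 without cKO 1 and -0.03 without cKO 2, that of Enpp2 -1.96 and 0.36, and that of Otx2 -0.61 and 0.40, and 6 of 9 members changed sign without cKO 2. No paired analysis was possible because only 1 floxed library was analysed and the columns are tied to no single sample. Depth limits Kl and Prlr, which had at most 19 counts.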

Other observations

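Multiciliated cells share part of their programme with choroid plexus epithelium, whose apical surface bears tufts of cilia. Of 18 genes of that programme listed in both tables, 16 were below floxed in cKO 2, 11 beyond counting error and 6 by more than 2-fold, with a median log2 ratio of -0.84. In cKO 1, 11 were above and 7 below, with a median of 0.03. The most abundant genes, which other cells of the cortex also express, differed by less: Rfx3 had 49.0 CPM in cKO 1, 45.0 in cKO 2 and 40.5 in floxed, Foxj1, the master regulator of motile cilia, 28.2, 24.0 and 27.9, and Ccdc40 16.7, 16.5 and 19.6. Less abundant genes were mixed. Lower in cKO 2 beyond counting error were, among others, the radial spoke gene Rsph4a (32 counts in floxed, 46 in cKO 1 and 9 in cKO 2), the adenylate kinase gene Ak7 (70, 61 and 17 counts) and Gmnc, a regulator of multiciliation (32, 63 and 18 counts). Within counting error of floxed there were, among others, Rfx2 (ratio 1.09, interval 0.873 to 1.36) and Tekt1 (ratio 0.970, interval 0.730 to 1.29). The less abundant genes named here were chosen after their values were seen, and none was called by edgeR.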
